A study of Sus scrofa with 6 samples.

Results

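miR-182 and miR-183 are microRNAs (miRNAs), short RNAs that guide the repression of messenger RNAs, and both are cut from the primary transcript of the miR-183 cluster. They were taken by name, as the rows for ssc-miR-182 and ssc-miR-183, which are 2 of the 326 mature pig miRNAs listed in each of 6 small RNA libraries. The libraries came from denuded oocytes of prepubertal gilts, from which the surrounding cumulus cells had been removed. Large-follicle oocytes (LO, 3 libraries) came from follicles of 3 to 6 mm, and small-follicle oocytes (SO, 3 libraries) from follicles under 2 mm. The needle and the syringe used for aspiration differed with follicle size, so the effects of these cannot be told apart. Both groups share the reproductive stage, the removal of cumulus cells and the library kit, and the series title sets the profile beside the developmental competence of the oocyte. The libraries are described as biological replicates. The numbers of gilts and of oocytes pooled per library were not stated in the labels, so p-values take libraries, not animals, as units.

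The miR-183 cluster is known in the mouse from sensory organs, where its members are abundant in photoreceptors and hair cells. In human and mouse cells miR-182 represses messages of the FOXO transcription factors, and FOXO3 in the mouse oocyte holds primordial follicles at rest. miR-183 represses, among other messages in human cells, that of ezrin, a protein that ties the membrane to actin. A miRNA finds its messages mainly through its seed, bases 2 to 8 from its 5′ end, so small changes there alter which messages it can pair with.

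The deposited sequences are shown because the 2 members are alike along most of their length and differ inside the seed, given here in capitals, 5′ to 3′ with T for U.
miR-182: tTTGGCAAtggtagaactcacact
miR-183: tATGGCACtggtagaattcactg
miR-182 was listed with 24 bases and miR-183 with 23. Aligned from the 5′ end without gaps, 18 of 23 positions were identical. Counted from 1 at the 5′ end, with the base of miR-182 first, the differences were T2A, A8C, C17T, A22T and C23G. The first and second of these are the outer bases of the seed, and the 5 seed bases between them, TGGCA at positions 3 to 7, were the same in both. The letters that pair with the whole seed in a message, also 5′ to 3′, are TTGCCAA for miR-182 and GTGCCAT for miR-183. The longest stretch in common, TGGTAGAA, followed the seed at positions 9 to 16.

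Reads of the 2 names were separable by sequence, since they differed at 3 of the first 20 bases. No other listed miRNA came closer than 8 differences to miR-182 or 7 to miR-183 over those bases. No other listed miRNA had either seed. Among those 1 seed base away were miR-450b-5p, with 37 reads over the 6 libraries, for miR-182, and miR-92a, a member of the growth-promoting miR-17 to miR-92 cluster, with 1376 reads, for miR-183. In the Sscrofa11.1 gene table the loci MIR183, MIR96 and MIR182 follow each other with no other gene between them, next to UBE2H on the side of MIR183 and NRF1 on the side of MIR182. Levels of miR-96, the other miRNA of the cluster, were not analysed here, nor were the opposite arms of miR-182 and miR-183.

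Listed miRNAs took 7755 to 42541 reads in LO and 44964 to 55230 in SO, so each LO library was shallower than any SO library. Levels are in RPM, reads per 1000000 of the authors' library total, which counts more than the listed miRNAs. Listed miRNAs made up 1.68% of that total in LO replicate 2 and 2.33% to 3.03% in the other 5 libraries, so a level in RPM and a share of listed miRNA reads can place a library differently. Each miRNA is read whole and the values are not scaled by length. Intervals given for 1 library are exact Clopper-Pearson 95% intervals and cover counting error only.

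Both members were present in every library, and miR-182 was one of the more abundant miRNAs of the oocyte. miR-182 had 333, 323 and 459 RPM in LO replicates 1 to 3, against 498, 447 and 448 RPM in SO replicates 1 to 3. Behind these stand 192, 149 and 654 reads in LO and 953, 857 and 981 reads in SO. LO replicates 1 and 2 were low, while LO replicate 3 lay among the SO libraries, so the groups overlapped. LO averaged 372 ± 75.9 RPM, against 464 ± 28.9 RPM for SO (SD over 3 libraries). By reads within a library miR-182 ranked 16th, 9th and 11th in LO and 9th, 9th and 10th in SO.

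miR-183 followed the same outline at a lower level. It had 52.1, 56.3 and 90.6 RPM in LO replicates 1 to 3, against 101, 73.5 and 88.2 RPM in SO replicates 1 to 3. These rest on 30, 26 and 129 reads in LO and 194, 141 and 193 reads in SO, so the first and second LO values are the least precise, with intervals of 35.2 to 74.3 and 36.8 to 82.5 RPM. LO replicates 1 and 2 were again the lowest libraries, and LO replicate 3 was above SO replicates 2 and 3. LO averaged 66.3 ± 21.1 RPM, against 87.7 ± 13.9 RPM for SO (SD over 3 libraries). Within a library it ranked 59th, 31st and 32nd in LO and 27th, 31st and 27th in SO.

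**Figure D1:**
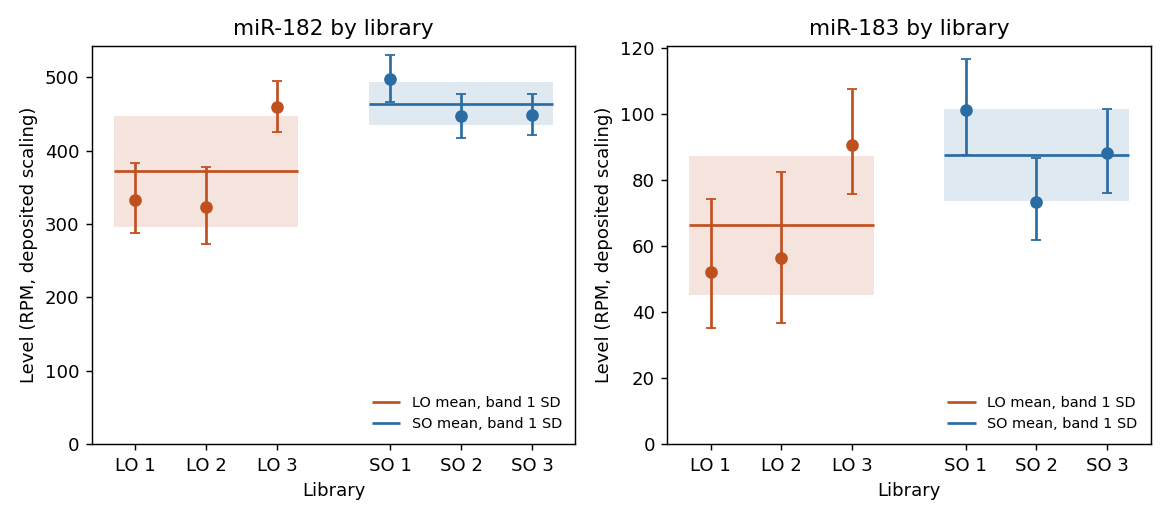
Level of miR-182 (left) and miR-183 (right) in RPM in each LO and SO library, with 95% counting intervals as bars, the group mean as a line and 1 SD as a band. For both members LO replicates 1 and 2 were the lowest libraries, at 333 and 323 RPM for miR-182, and LO replicate 3 lay within the SO range for both.

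The miRNAs next in rank show how close these levels were to others. In LO miR-182 came 11th by mean level, after miR-103 at 508 ± 285 RPM and before miR-10b, a miRNA of the HOX gene clusters, at 346 ± 110 RPM, and the ranges of all 3 overlapped. In SO it came 9th, before miR-10b at 450 ± 58.7 RPM, from which it did not differ beyond the spread. let-7f, one place above it in SO at 637 ± 72.1 RPM, had all 3 of its libraries above the highest miR-182 value (SD, n = 3 each). miR-183 came 41st in LO, between miR-24-3p and miR-30c-5p, and 29th in SO, between miR-20a and miR-191, and its range overlapped each of these.

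The question posed by follicle size was whether oocytes of large follicles hold more or less of the cluster. Neither member passed a false discovery rate (FDR) of 0.05 in a limma fit of log2(RPM + 1) over the 104 miRNAs with enough reads, in which 0% of the tested miRNAs passed, 4 (3.85%) had an unadjusted p under 0.05 and the smallest FDR was 0.763. miR-182 had a log2 fold change, LO over SO, of -0.34 (SE 0.44, limma 95% interval -1.20 to 0.53, FDR 0.780). For miR-183 it was -0.43 (SE 0.54, interval -1.48 to 0.63, FDR 0.780). These SEs follow the trend of spread with abundance over all tested miRNAs, with 416 degrees of freedom. The intervals and FDRs of this fit thus do not measure the spread of a member's own values. From the 6 values of the miRNA itself the SE was 0.17 for miR-182 and 0.28 for miR-183, so the replicates of both were tighter than the fit assumed. The RPM ranges of the groups overlapped for both members, as for all but 4 of the 104 tested miRNAs (3.85% did not overlap). With edgeR's quasi-likelihood test and TMM scaling on reads recovered from the values, which called 2 miRNAs (1.92%), the FDR was 0.368 for miR-182 and 0.349 for miR-183. The unadjusted p of this edgeR test was 0.0681 for miR-182 and 0.0475 for miR-183, which put miR-183 among 13 of 104 tested miRNAs under 0.05. Less RNA of a miRNA per oocyte and fewer oocytes that hold it cannot be told apart in such libraries.

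On the deposited scaling a lower mean in LO was seen for 32 of the 104 tested miRNAs (30.8%), both members among them, but this balance moved with the scaling and with 1 library. With TMM, a scaling that centres the profile, 55 of 104 were higher in LO, and without LO replicate 1 on the deposited scaling 47 of 104 were. From the lowest log2 fold change upward miR-183 was 13th and miR-182 19th. Over all tested miRNAs the median log2 fold change was 0.29, so miR-182 and miR-183 were 0.63 and 0.72 below it. With TMM the median was 0.05 and the members' log2 fold changes were -0.58 and -0.67. TMM shifts all miRNAs of a library alike, so the distance from the median is nearly the same by construction. Much of this distance came with 1 library. Without LO replicate 1 the log2 fold changes were -0.27 and -0.28, with a median of -0.06 for all tested miRNAs, so the members were 0.20 and 0.21 below it and stood 29th and 28th of 104. Leaving out any other single library kept both members 0.49 to 0.96 below the median of that fit. The distance was largest without LO replicate 2, at 0.87 for miR-182 and 0.96 for miR-183.

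**Figure D2:**
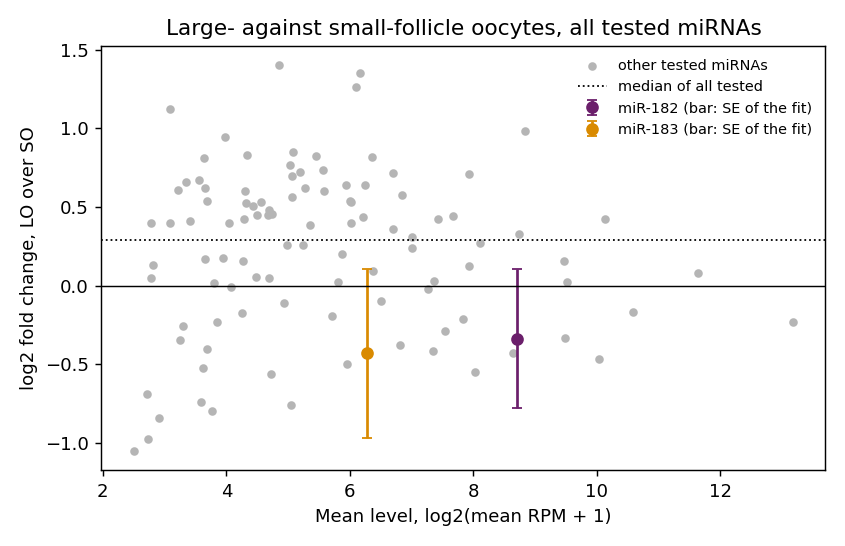
Log2 fold change, LO over SO, against the mean level as log2(mean RPM + 1) for the 104 tested miRNAs, with miR-182 and miR-183 marked with the SE of the limma fit. Both members lay below 0, at -0.34 and -0.43, and below the dotted median of 0.29, and the SE of each reached across 0.

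Set against the listed miRNA reads alone, the lowest library was LO replicate 1, and LO replicate 3 was also below every SO library. Together the pair took 1.27%, 2.26% and 1.84% of listed miRNA reads in LO replicates 1 to 3, against 2.08%, 2.22% and 2.30% in SO replicates 1 to 3. LO replicate 2, low in RPM, was here within the SO range, while LO replicate 3, within that range in RPM, was here below it. LO averaged 1.79% ± 0.495, against 2.20% ± 0.115 for SO (SD over 3 libraries), which is -0.411 percentage points for LO minus SO (two-sided exact permutation p = 0.3, where 3 libraries against 3 cannot go below 0.1). Without LO replicate 1 the difference was -0.152 percentage points (exact permutation p = 0.6, where 2 against 3 cannot go below 0.2). The summed level of the pair averaged 438 ± 96.7 RPM over the LO libraries, against 552 ± 41.6 RPM over the SO libraries (exact two-sided permutation p = 0.3).

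**Figure D3:**
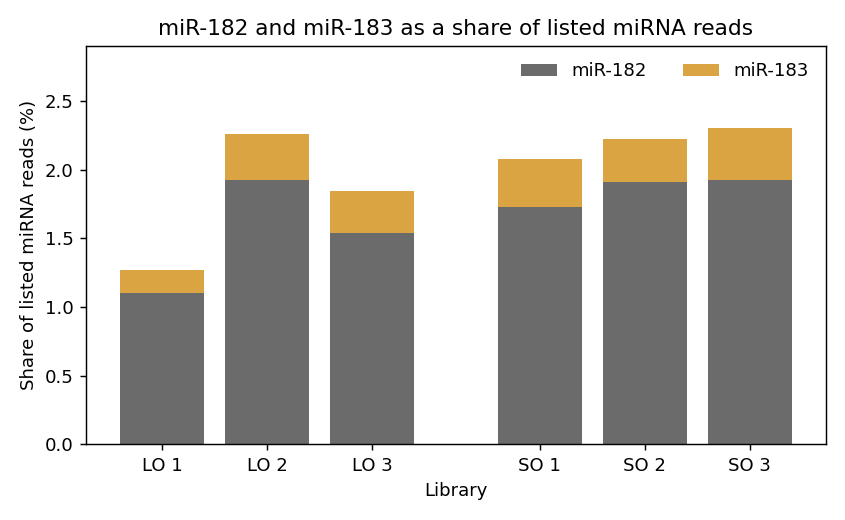
Share of listed miRNA reads, in percent, taken by miR-182 (grey) and miR-183 (yellow) in each LO and SO library, stacked. LO replicate 1 was lowest, at 1.27% for both together, and the other 5 libraries ran from 1.84% to 2.30%.

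miR-182 outnumbered miR-183 in every library, and by a similar factor in each. The ratio of miR-182 to miR-183 reads was 6.40, 5.73 and 5.07 in LO replicates 1 to 3, against 4.91, 6.08 and 5.08 in SO replicates 1 to 3. The counting interval was widest in LO replicate 1, at 4.34 to 9.74, and narrowest in SO replicate 1, at 4.21 to 5.76. Ordered by ratio the groups interleaved, and every library's interval held the ratio of all reads together, 5.31 from 3786 miR-182 reads and 713 miR-183 reads. The mean log2 ratio over the 6 libraries was 2.46 ± 0.158 (SD), a geometric mean ratio of 5.52, and it differed from 0 with an exact two-sided sign-flip permutation p of 0.0312 (n = 6), the smallest that 6 libraries can give. These are ratios of reads.

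The ratio did not separate the groups. LO had a mean log2 ratio of 2.51 ± 0.168, against 2.42 ± 0.165 for SO (SD over 3 libraries), a difference of 0.10 with an exact two-sided permutation p of 0.6. Pooled over libraries, LO had 995 reads of miR-182 and 185 of miR-183, a ratio of 5.38, and SO had 2791 and 528, a ratio of 5.29. This comparison also asks whether the 2 members differ in their LO to SO difference, and the value was within 1 SD of either group.

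**Figure D4:**
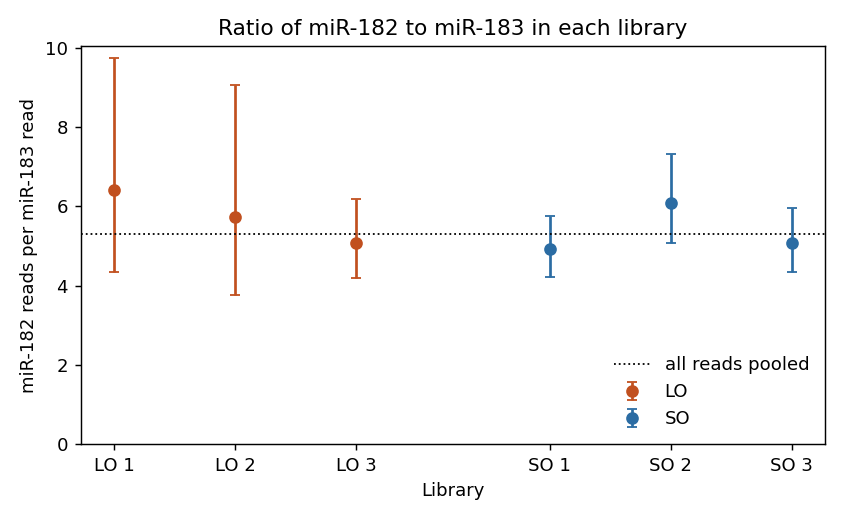
Reads of miR-182 per read of miR-183 in each LO and SO library, with exact 95% counting intervals and the ratio of all reads pooled as a dotted line at 5.31. The libraries ran from 4.91 to 6.40, LO and SO interleaved, and each interval crossed the pooled ratio.

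The spread of the ratio was set beside that of counting alone. Over the 6 libraries the chi-square of miR-182 against miR-183 reads was 0.953 times its degrees of freedom, where a value near 1 is the spread of counting alone. It was 0.626 within LO and 1.74 within SO. Against all other listed miRNA reads it was 14.3 times for miR-182 and 3.84 times for miR-183. These splits differ in depth, with 713 miR-183 reads limiting the ratio and 3786 reads behind miR-182, so a given spread shows less readily in the ratio. Without LO replicate 1 these were 0.947 for the ratio, 6.59 for miR-182 and 1.28 for miR-183, so most of the spread of miR-183 beyond counting came with that library.

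The levels of the 2 members were correlated over the 6 libraries in RPM and with TMM, and how far this rested on single libraries depended on the scaling. On log2(RPM + 1) Pearson's r was 0.96 (exact permutation p = 0.0139, adjusted over 3 scalings 0.0208) and Spearman's rho 0.94 (exact p = 0.0167, adjusted 0.05), n = 6. Both values of a library share its total, which alone can make them move together. On listed miRNA reads, free of the authors' total, r was 0.94 (exact permutation p = 0.0528, adjusted 0.0528) and rho 0.83 (exact p = 0.0583, adjusted 0.0583), and with TMM r was 0.98 (exact p = 0.0111, adjusted 0.0208) and rho 0.83 (exact p = 0.0583, adjusted 0.0583). Leaving out the 2 libraries farthest from the median of miR-182 gave r = 0.81 and rho = 1 in RPM without LO replicates 1 and 2 (exact permutation p = 0.0833 for each, the smallest that 4 libraries can give, so no call at 0.05 was possible). On listed reads without LO replicates 1 and 3 it gave r = -0.10 (exact permutation p = 1), and with TMM, without the same libraries, r = 0.65 (exact permutation p = 0.333), so on these scales the relation rested on those libraries.

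Other miRNA pairs cut from 1 primary transcript in mammals were set beside it. Of 16 such pairs, 13 had both members listed with a mean of at least 10 reads. The SD of the log2 ratio over the 6 libraries was 0.158 for miR-182 and miR-183 and 0.242 to 1.07, with a median of 0.462, for the 13 others. Next came miR-23b with miR-27b-3p, at 0.242, and miR-99b with let-7e, at 0.280. miR-191 with miR-425-5p, with 873 and 451 reads in all, had an SD of 0.653. The chi-square over degrees of freedom, which sets the spread beside counting error, was 0.963 for miR-99b with let-7e, close to the 0.953 of miR-182 with miR-183, and 6.24 for miR-191 with miR-425-5p, with a median of 2.02 over the 13 pairs. Some of these miRNAs, such as miR-16 and miR-92a, also come from another locus, and the difference between pairs was not tested.

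**Figure D5:**
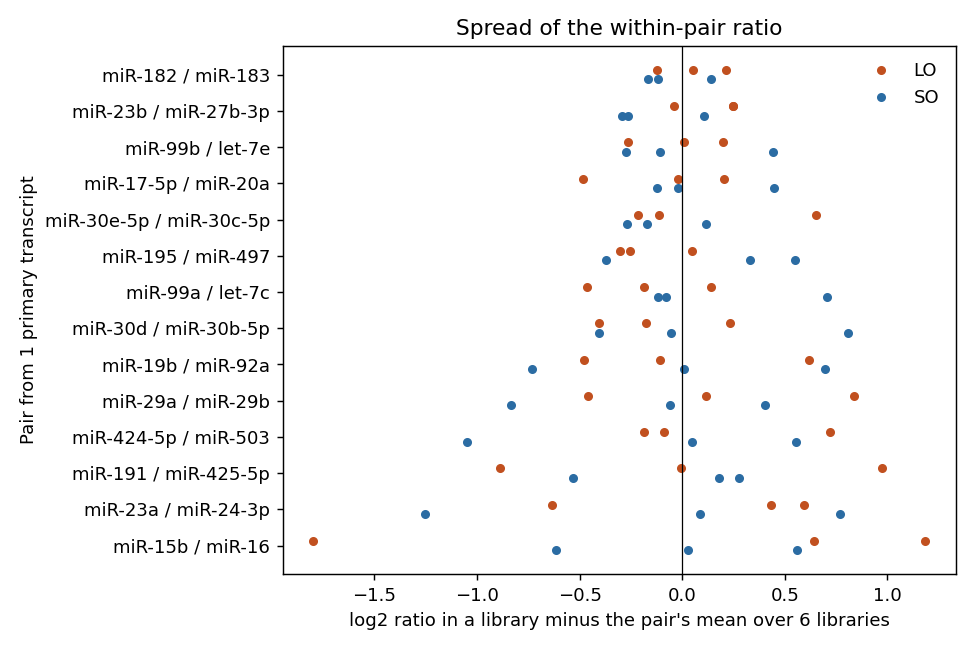
Log2 ratio of the 2 miRNAs of a pair in each LO and SO library, minus the pair's mean over the 6 libraries, for miR-182 with miR-183 and 13 other pairs, ordered by SD. The points of miR-182 with miR-183 lay closest together, with an SD of 0.158, and those of miR-15b with miR-16 were most spread, with an SD of 1.07. miR-15b had 0 reads in LO replicate 2, so 0.5 read was added to both members of that pair.

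By Pearson's r on log2(RPM + 1) over the 6 libraries, given as a description, the 5 of 103 other tested miRNAs most like miR-182 were miR-503 (0.97), miR-218b (0.97), miR-7 (0.96), miR-183 (0.96) and miR-128 (0.96). For miR-183 they were miR-7 (0.98), miR-182 (0.96), miR-503 (0.95), miR-146a-5p (0.94) and miR-30a-5p (0.90). Each cluster member thus stood among the 5 nearest of the other. With TMM the nearest to miR-182 was miR-183 (0.98), and miR-182 was the 4th nearest to miR-183 (0.98). These names were the highest of 103 values and carry no test.

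Of 15 names listed for sensory organs and neuroectoderm, tissues where the cluster is known, 11 were listed and 6 had enough reads to test. Of these 6, 2 had a higher mean in LO and 4 a lower one, none passed FDR 0.05 by limma, and the median log2 fold change was -0.23, beside 0.29 for all 104 tested miRNAs, of which 72 were higher and 32 lower. miR-7, a miRNA of neuroendocrine cells, was at -0.55 (SE 0.47), on the same side as the cluster. miR-184, a miRNA of the cornea and lens, was at 1.35 (SE 0.55) on the other side. Of the miRNAs of this list that were not tested, miR-204, known from the retinal pigment epithelium, was at a mean of 4.38 RPM among LO libraries and 5.37 RPM among SO libraries.

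A list of other miRNAs known to repress FOXO1 or FOXO3 messages, mostly from human and mouse cells, held 16 names, of which 12 were listed and 5 tested. Of these 5, 3 had higher and 2 lower means in LO, none passed FDR 0.05 by limma, and the median log2 fold change was 0.24, close to that of all 104 tested miRNAs, of which 72 were higher and 32 lower with a median of 0.29 and 0% called. miR-182, with means of 372 RPM for LO and 464 RPM for SO, was above each of the 12 in both groups. The nearest was miR-27b-3p, with means of 145 RPM for LO and 110 RPM for SO. miR-9, miR-9-1 and miR-9-2 belong to both lists, so the lists are not separate results. miR-9-1 and miR-9-2, at -0.74 and -0.23, are the 2 lower members here and are among the 4 lower members of the sensory list.

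Markers of other cell types were set beside the pair, and their part in its level was not tested. A name is counted as with reads if any of the 6 libraries held a read of it. Granulosa and cumulus markers, all 8 of 8 with reads, took 1.93% to 3.82% of listed miRNA reads in LO and 1.68% to 2.55% in SO. The names were far from equal in level. miR-31 and miR-21 had means of 310 and 267 RPM for LO and 175 and 218 RPM for SO. miR-212 had 0 RPM for LO and 0.326 RPM for SO. Their share was highest, 3.82%, in LO replicate 1, the library with the lowest share of miR-182 and miR-183, and was 1.93% in LO replicate 2, where the pair took 2.26%. The share of the oocyte and germ cell names below was also highest in LO replicate 1, at 0.905%. Theca, stroma and smooth muscle markers, 8 of 9 with reads and miR-214 at 0, took 0.252% to 0.438% in LO and 0.194% to 0.349% in SO. Muscle markers, 3 of 4 with reads and miR-133b at 0, took 0.0329% to 0.0774% in LO and 0.0157% to 0.0222% in SO, ranges that did not overlap, on 59 reads in all. So few reads leave the muscle shares imprecise, and their difference was not tested. The ranges of every other marker group overlapped. Among the 104 tested miRNAs the RPM ranges of the groups did not overlap for 3.85%. Endothelial markers (2 of 2 with reads) and red cell markers (3 of 3) each took at most 0.0645% in any library. Leukocyte markers, of which 4 of 5 names were listed and all 4 had reads, took at most 0.203%. Of 3 oocyte and germ cell names 2 were listed, both with reads. They took 0.542% to 0.905% in LO and 0.540% to 0.884% in SO, with the ranges overlapping. Among these is miR-202-5p, which is also on the granulosa and cumulus list, so its reads count in both shares. It had means of 159 RPM for LO and 146 RPM for SO, against 28.0 and 31.0 RPM for miR-34c.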

How the data were processed

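Small RNA libraries were made from mirVana RNA with the QIAseq miRNA Library Kit, per the labels' protocols. Tools named in the submitters' processing notes, without their roles, are cutadapt, edgeR, bcl2fastq and Bowtie2 (version 2.2.2), and the build named is Sscrofa10.2. The authors deposited 1 value per miRNA, headed TPM in the file header. Every value was a whole multiple of 1 step per library whatever the length, so the deposited values were read as RPM, and 100% of the values above 0 came out as whole reads after division by that step (tolerance 0.01 read). Whether reads were collapsed by molecular identifiers is not stated, so reads could not be taken as molecules. One read was worth 0.702 to 2.17 RPM in LO and 0.457 to 0.522 RPM in SO.

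The main test was limma 3.58.1 with a trend on log2(RPM + 1), a pseudocount of 1 RPM that understates changes of low miRNAs, in R 4.3.3, for miRNAs passing filterByExpr, with Benjamini-Hochberg adjustment over all of them. Single values were tested by exact permutation. edgeR 4.0.16, DESeq2 1.42.0, other scalings, pseudocounts and filters, the replicate number as a block and leaving out each library were alternatives. The fits were tested on simulated data. The members, lists, pairs and the rule for named miRNAs (the members, their seed and rank neighbours, the 5 most alike, and list members) were chosen with earlier results of these data known. miR-103, miR-16 and others named as examples follow that rule or the fixed pairs. Coordinates are not given because the gene table is of another build.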

Additional observations from a re-analysis of the deposited data

How the results depend on the processing

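The log2 fold changes of miR-182 and miR-183 stayed negative and short of FDR 0.05 in all 16 alternatives each, from -0.58 to -0.24 and from -0.67 to -0.28. The count of miRNAs called over the whole profile was 0 by limma, with 4 at an unadjusted p under 0.05, and 2 by edgeR with TMM, with 13 at an unadjusted p under 0.05. miR-183 was among these 13, and miR-182 was not. Leaving out 1 library gave 0 to 18 called by limma. The 18 came without LO replicate 2, all higher in LO, with FDRs of 0.652 and 0.632 for the members. DESeq2 called 0, with 9 at an unadjusted p under 0.05. Leaving out 1 library gave mean log2 ratios of miR-182 to miR-183 of 2.42 to 2.50, each with an exact sign-flip permutation p of 0.0625, the smallest that 5 libraries allow. Their correlation had r = 0.94 on listed miRNA reads (exact p = 0.0528) and r = 0.81 without the 2 libraries farthest from the median of miR-182 (exact p = 0.0833, the smallest that 4 libraries allow). Without the 2 farthest libraries it was r = -0.10 on listed reads and 0.65 with TMM. For the difference in log2 ratio between LO and SO, leaving out 1 library gave 0.02 to 0.19.

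Libraries of the same number did not deviate together (correlations of -0.34, -0.22 and 0.08 for numbers 1 to 3). No LO library was most like the SO library of its own number, and of the SO libraries only replicate 3 was most like its own. With the replicate number as a block, limma called 0 miRNAs, with a log2 fold change of -0.34 for miR-182 and -0.43 for miR-183 (FDR 0.853 each). The exact sign-flip p with this pairing, which cannot go below 0.25 with 3 pairs, was 1 for the difference in log2 ratio of 0.10 and 0.5 for the share of listed reads (-0.411 percentage points) and for the summed RPM (-114). Depth limits miR-183 most, with 26 reads in LO replicate 2.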
